A study of Ovis aries with 9 samples.

Results

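The cytosolic ribosomal protein genes encode the proteins of the small and the large subunit of the ribosome. They were taken by symbol from a count table of sheep (Ovis aries) hepatocytes, as the rows named RPL or RPS with a number and an optional A, X or L ending, plus RPLP0, RPLP1, RPLP2 and RPSA. That gave 80 of 28837 named genes, with 31 genes of the small subunit, 43 of the large subunit and 6 paralogs (RPL3L, RPL7L1, RPL10L, RPL22L1, RPL26L1 and RPS27L). Of the 80 genes, 79 had at least 1 read, 78 passed the filter on low counts, and 76 averaged at least 20 CPM (the count of a gene relative to the size of its library) over the stages. RPL41, RPL17, RPL26 and RPL39L were not analysed here.

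In the ribosome these proteins sit around the ribosomal RNA, nearly all of them as a single copy, while the acidic stalk proteins RPLP1 and RPLP2 are present in more than a single copy. Their messenger RNAs are abundant in most cells and begin with a run of pyrimidines, the TOP motif, through which mTORC1 and LARP1 control their translation. In liver, which makes most plasma proteins, they are part of the machinery behind protein output. Read counts measure the messenger RNAs, not the proteins and not the ribosomes.

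The samples were hepatocytes of female sheep at 9 stages with 1 sample each. They were 2 lactation stages (days 7 and 15 after birth), 6 gestation stages (days 40 to 50, 50 to 70, 70 to 80, 90 to 100, 100 to 120 and 140 to 150) and virgin sheep. All groups share livers taken at slaughter, cold storage, collagenase digestion and hand picking of single cells, and each cell had its own Smart-seq3xpress library, a plate-based full-length method. The labels name no strain, animal, age or plate, so differences between sheep, plates and stages cannot be told apart, and the p-values measure the spread between these samples.

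The 3404 cells held 36518 to 3842012 reads each (median 416564.5), and the stages held 246 to 553 cells. No cell's counts equalled those of another cell. Of the 13 hepatocyte markers, 13 had reads, and they summed to 111363 and 85455 CPM at lactation days 7 and 15, 165373 to 217689 CPM in gestation and 176646 CPM in virgin cells. Albumin (ALB) alone took 5.22% and 3.54% of reads at lactation days 7 and 15, against 8.68% to 10.7% in gestation and 8.54% in virgin cells. The 10 lymphocyte markers with a row summed to 51.5 and 4.47 CPM at these lactation days, 4.00 to 35.9 CPM in gestation and 3.72 CPM in virgin cells, and the 6 red cell markers reached 224 CPM at lactation day 7. The 5 neutrophil markers with a row summed to 13.1 and 8.13 CPM at lactation days 7 and 15, against 1.05 to 2.78 CPM in gestation and 4.36 CPM in virgin cells, and their part in the lactation values given here was not tested. The 9 macrophage markers with a row summed to 43.9 and 5.46 CPM at lactation days 7 and 15. Their sum was 6.24 to 46.1 CPM in gestation and 13.96 CPM in virgin cells. Of these markers, CD68 was at 0 in every stage.

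The 80 ribosomal protein genes took between 4.58% and 6.82% of the reads, least at days 70 to 80 of gestation and most in the stage at days 100 to 120. Their share of all reads on named genes was 5.33% in virgin cells, then 4.84%, 4.82%, 4.58%, 5.45%, 6.82% and 5.25% along the 6 gestation stages, and 5.54% and 6.18% at lactation days 7 and 15. The highest stage, days 100 to 120 of gestation, stood 1.49-fold above the lowest, days 70 to 80. The 95% Clopper-Pearson interval at days 100 to 120 ran from 6.819% to 6.826%, and the intervals cover counting error only. Lactation averaged 5.86% ± 0.450 (SD, n = 2), gestation 5.29% ± 0.813 (SD, n = 6) and the single virgin sample 5.33%. Both lactation values lay inside the range of the gestation stages, so the groups overlapped.

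**Figure D1:**
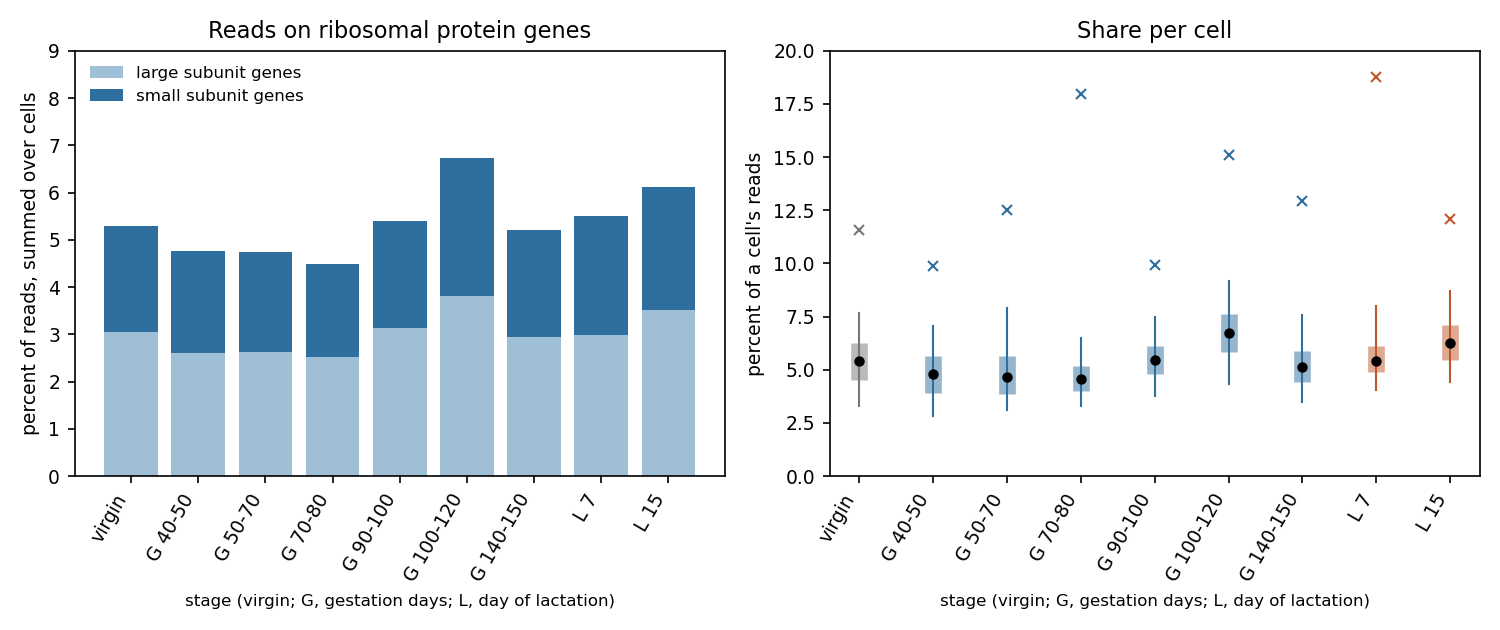
Left, percent of reads on small and large subunit genes (bars, cells summed, paralogs left out) at 9 stages; right, the percent per cell, with the median as a point, the quartiles as a thick bar, the 5th to 95th percentile as a line and the highest cell as a cross. Days 100 to 120 of gestation were highest at 6.82% of reads with paralogs included, and single cells reached 18.8%.

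The share is a part of a whole, and the whole changed with the stage. When the total was scaled by TMM (a scaling that sets most genes equal between samples), the members summed to 51018 and 55908 CPM at lactation days 7 and 15, against 43682 to 74182 CPM in gestation (median 52932) and 50338 CPM in virgin cells. On that scale lactation day 7 was below the gestation mean of 55347 CPM and day 15 above it, whereas the raw shares of both were above the gestation mean. With the 10 most abundant other genes left out of the total, the share was 6.73% and 7.31% in lactation, 5.85% to 8.71% in gestation and 7.04% in virgin cells. Days 100 to 120 remained the highest stage and days 70 to 80 the lowest on each of these scales. In sums over cells, fewer cells with many such transcripts and less of the RNA per cell cannot be told apart, so the same share was taken cell by cell.

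The typical cell gave the same highest and lowest stage. The median cell had 5.41% of its reads on ribosomal protein genes in virgin sheep, then 4.78%, 4.68%, 4.54%, 5.44%, 6.75% and 5.11% along gestation, and 5.40% and 6.24% at lactation days 7 and 15. At days 100 to 120 the 5th to 95th percentile of cells ran from 4.33% to 9.17%, and at days 70 to 80 from 3.28% to 6.51%. The ranges of single cells therefore overlapped between these stages, and cells of a stage are not replicates. Among cells with at least 155165 reads, the 10th percentile of depth, the medians at days 100 to 120 and 70 to 80 were 6.74% and 4.46%.

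A small set of cells stood far above the rest. In 28 cells of 3404, more than 10% of reads fell on ribosomal protein genes. Reads of PTPRC, which encodes the leukocyte surface protein CD45, were present in 64.3% of these cells, against 9.86% of the other 3376. CD3E, a chain of the T cell receptor complex, had reads in 50% of them, against 5.69% of the others, and their median ALB level was 25679 CPM against 85237 CPM. Their median depth was 182524 reads against 417894. The 5 highest cells, at 13.5% to 18.8%, all had PTPRC and CD3E reads. Without all 826 cells that had any read of PTPRC, HBB or PECAM1, markers of leukocytes, red cells and endothelium, the summed share was 6.73% at days 100 to 120 and 4.52% at days 70 to 80.

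The high level at days 100 to 120 was shared by most members. Among the 76 genes of at least 20 CPM, 67 had their highest gestation level at days 100 to 120, where 27.5% of all 4141 genes of at least 20 CPM had theirs. The lowest gestation level was at days 70 to 80 for 56 of the 76, against 22.0% of all those genes. Set against days 70 to 80, days 100 to 120 were higher for 75 of 76 members with a median log2 difference of 0.67, while 62.4% of all genes were higher with a median of 0.12. At days 140 to 150, 74 of 76 were below days 100 to 120 with a median log2 difference of -0.40, against -0.12 for all genes. Each of these is a difference between 2 single samples with no replicate, so it has no test, and the members share their library.

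**Figure D2:**
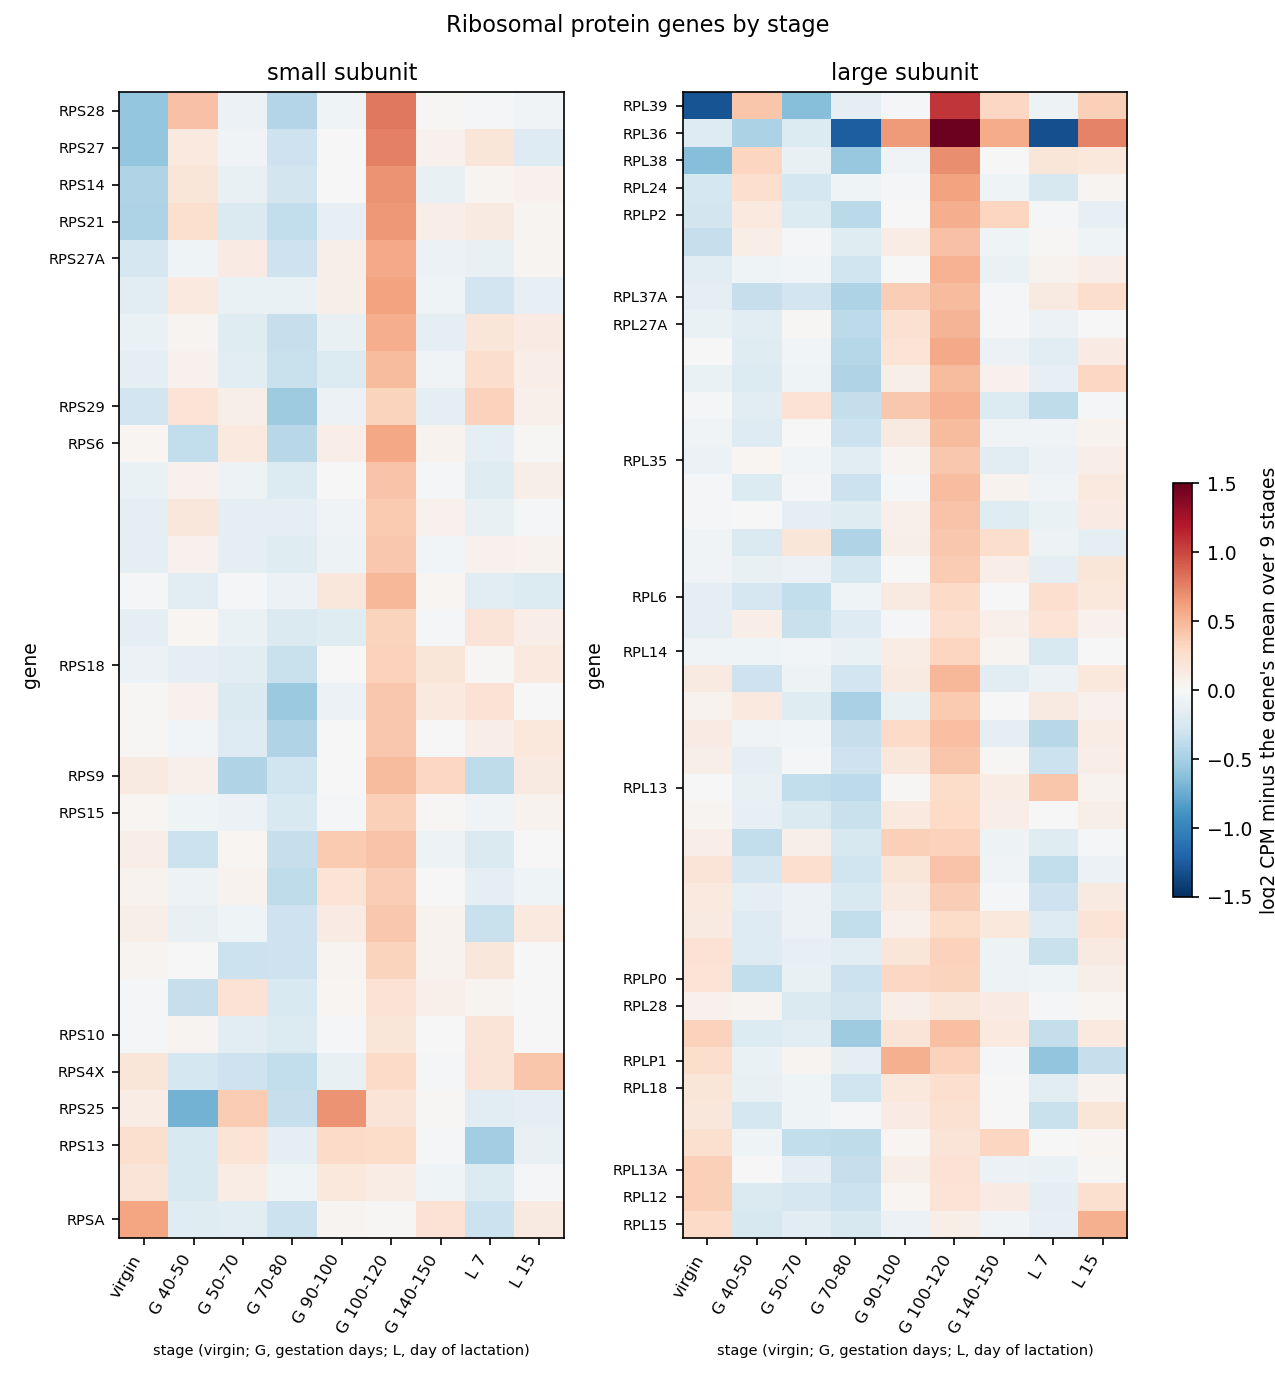
Log2 CPM (TMM-scaled) of 73 ribosomal protein genes at each of the 9 stages, as the difference from the gene's own mean, with small subunit genes on the left and large subunit genes on the right and names beside a selection of rows. The column of days 100 to 120 is red for nearly every gene and that of days 70 to 80 mostly blue, while RPL39 and RPL36 reach much further than the rest.

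The mitochondrial ribosomal proteins build the separate ribosome inside mitochondria and were set beside the cytosolic ones over the same 2 stages, without a test. Of 53 such genes of at least 20 CPM, 26 were highest in gestation at days 100 to 120, against 27.5% of all genes of that level. At days 70 to 80, 14 of the 53 were lowest, against 22.0% of all those genes. The median log2 difference between these stages was 0.26, against 0.12 for all genes. Elongation and initiation factors and other TOP messages had a median of 0.41 over 20 genes. Of these 20, 11 were highest at days 100 to 120 and 10 were lowest at days 70 to 80. For ribosome assembly genes the median was 0.27 over 21 genes, with 11 highest at days 100 to 120 and 4 lowest at days 70 to 80.

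To ask whether the phases differed, counts summed per stage were fitted over all genes with edgeR's quasi-likelihood test and Benjamini-Hochberg adjustment, with a term for each phase. In lactation against gestation, 0 of 78 members had an adjusted p under 0.05, where 0.0592% of all 20263 genes did, and DESeq2 and limma also called 0. At an unadjusted p under 0.05, 0 members were higher and 2 lower (RPLP1 and RPL3L), against backgrounds of 5.01% and 4.39%. The 76 members of at least 20 CPM had a median log2 fold change of -0.04 with an SD of 0.18 between genes, and 75 of them lay within 0.5 of 0. All 4141 genes of that level had a median of -0.02 and an SD of 0.49. Of the 78 members, 33 were above 0, against 48.9% of all genes, and that count went to 21 without days 70 to 80 and to 50 without lactation day 7. Scaled by library size alone, the median of all genes shifted to 0.18 and 68 members were above 0. With equal weight per cell, also without TMM, 69 were above 0, where all genes had a median of 0.02 and the members of 0.21.

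The largest difference between lactation and gestation among the abundant members was in RPLP1, a stalk protein that helps to recruit elongation factors. RPLP1 had 764 and 906 CPM at lactation days 7 and 15, against 1045 to 1660 CPM over the gestation stages (median 1158) and 1375 CPM in virgin cells. On this TMM scale both lactation samples lay below every gestation sample. Scaled by the reads of each cell, the median cell had 832 and 973 CPM at lactation days 7 and 15. The gestation medians were 954 to 1373 CPM, so on that scale day 15 overlapped gestation. Its log2 fold change was -0.59 with an SE of 0.24 and an adjusted p of 0.466 in edgeR, so it did not pass the test. Without the cells that had PTPRC, HBB or PECAM1 reads its log2 fold change was -0.57. The samples of the other stalk members overlapped. RPLP2 had 688 and 640 CPM in lactation against 526 to 1017 CPM in gestation (log2 fold change -0.17), and RPLP0, the base of the stalk, had 588 and 657 CPM against 480 to 779 CPM (log2 fold change 0.02).

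On the TMM scale 3 members, RPLP1 and RPL3L among them, had both lactation samples below all gestation samples, where 4.86% of all genes did. On the same scale 0 members had both above, where 6.14% of all genes did. RPS13, a small subunit protein, had 349 and 463 CPM against 427 to 612 CPM (log2 fold change -0.38, SE 0.21), with a log2 fold change of -0.19 without day 7 and -0.60 without day 15. At the other end, RPS4X, the X-linked small subunit protein, had 294 and 342 CPM at lactation days 7 and 15, against 198 to 314 CPM in gestation (log2 fold change 0.42, SE 0.20, edgeR adjusted p = 0.551). RPL15 reached 421 CPM at lactation day 15 and 267 CPM at day 7, against 246 to 311 CPM in gestation (0.35, SE 0.19), and its log2 fold change was -0.01 without day 15 and 0.64 without day 7. RPL13 and RPL6 followed with log2 fold changes of 0.30 and 0.23, and that of RPL13 was 0.11 without day 7 and 0.48 without day 15. None of these passed the test.

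**Figure D3:**
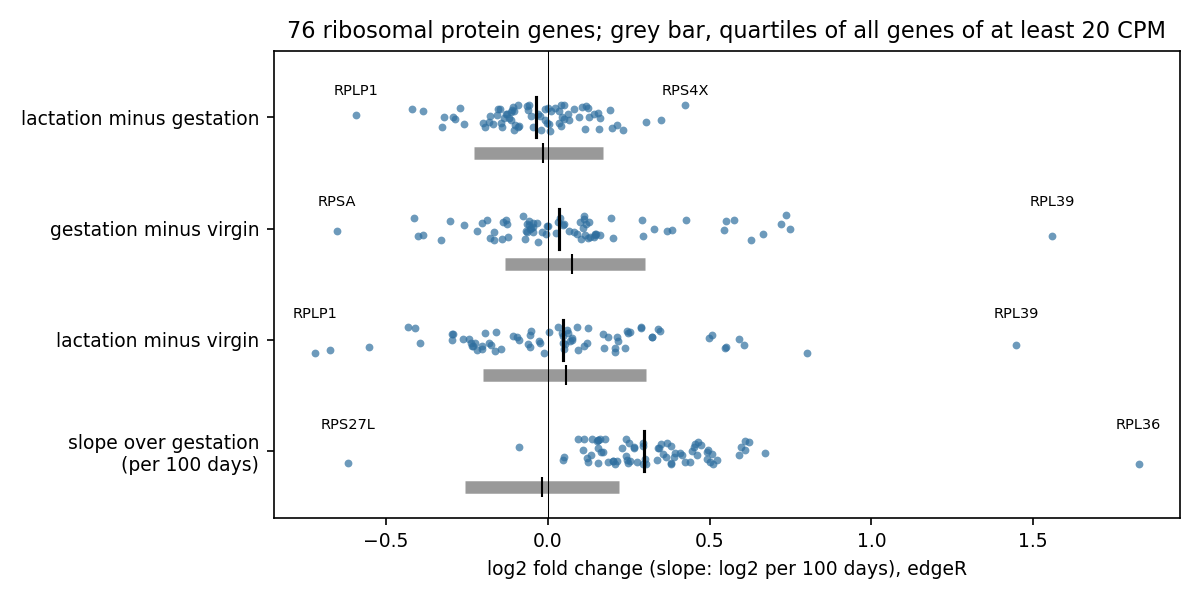
Log2 fold changes of 76 ribosomal protein genes in the 3 phase comparisons and their slope over gestation (points, 1 per gene, with a black line at the median); the grey bar spans the quartiles of all 4141 genes of at least 20 CPM and its tick is their median. Members sit closely around 0 in lactation minus gestation and mostly above 0 in the slope, with a median of 0.30 per 100 days.

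Gestation and lactation were each set against the virgin sample, which is 1 library whose spread is assumed to be like that of the other phases. Of the 78 members, 0 had an adjusted p under 0.05 in gestation against virgin, where 0.00494% of all genes did, and 0 in lactation against virgin, where 0% did, and DESeq2 and limma also called 0 in both. At an unadjusted p under 0.05, 1 member was higher and 1 lower in each of these comparisons, RPL39 and RPSA both times, against backgrounds of 2.3% and 2.15% in gestation against virgin and of 2.5% and 2.43% in lactation against virgin. The 2 comparisons share the virgin library, so their likeness is no separate result. In gestation against virgin the median log2 fold change of the 76 members was 0.04 with an SD of 0.32, against 0.07 and 0.50 for all genes of that level, and 41 of 78 were above 0, against 54.8% of all genes. In lactation against virgin it was 0.05 with an SD of 0.33, against 0.06 and 0.62, and 44 of 78 were above 0, against 53.4%.

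RPL39, a very small protein that lines the exit tunnel of the large subunit, had the largest difference from the virgin sample among the 76 members of at least 20 CPM. It had 520 CPM in virgin cells, then 1700, 819, 1159, 1253, 2676 and 1574 CPM along gestation, and 1206 and 1629 CPM at lactation days 7 and 15. Every gestation and lactation sample was above the virgin one, and its level differed 5.15-fold between the lowest and highest stage. The log2 fold change of gestation over virgin was 1.56 (SE 0.57, edgeR adjusted p = 1) and that of lactation over virgin 1.45 (SE 0.61, adjusted p = 0.965). RPS28, RPL38 and RPS27 followed in gestation against virgin with log2 fold changes of 0.75, 0.74 and 0.72. RPS28 had 1188 to 2794 CPM in gestation, against 1075 CPM in virgin cells, and RPL38, known in mouse for its part in translating Hox messages, had 556 to 1332 CPM in gestation, against 529 CPM in virgin cells. Neither gene's gestation samples overlapped the virgin one.

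RPSA, which is also known as the laminin receptor, went the other way. It had 139 and 191 CPM in lactation and 139 to 202 CPM in gestation, against 263 CPM in virgin cells, so all 8 other samples were below the virgin one. Its log2 fold change was -0.65 in gestation over virgin (SE 0.24, edgeR adjusted p = 1) and -0.67 in lactation over virgin (SE 0.28, adjusted p = 0.965). RPL12, RPL15 and RPL13A had log2 fold changes of -0.41, -0.40 and -0.39 in gestation over virgin. In all, 10 members were higher in all 6 gestation samples than in the virgin one, and 5 were lower, against backgrounds of 12.3% and 14.8%. For lactation against virgin these counts were 29 and 23, against 30.6% and 32.4% of all genes. RPS6, whose protein is phosphorylated by the S6 kinases downstream of mTORC1, had 393 and 443 CPM in lactation, 328 to 653 CPM in gestation and 444 CPM in virgin cells, and its log2 fold changes lay between -0.12 and 0.03 in the 3 phase comparisons.

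The slope over gestation was fitted on the middle day of each range. Of the 78 members, 76 had a slope above 0, against 51.1% of all 17848 genes tested, and the median of the 76 genes of at least 20 CPM was 0.30 log2 per 100 days, against -0.02 for all genes of that level. However, 0 of 78 had an adjusted p under 0.05, where 0.0336% of genes did, and 1 (RPL36) had an unadjusted p under 0.05 with a slope above 0, against 3.2% of all genes. Below 0, 0 members had an unadjusted p under 0.05, against 3.41%, and DESeq2 and limma called 0 in either direction. With 1 gestation stage left out, 59 to 78 members had a slope above 0. The median slope was 0.16 without days 100 to 120 and 0.69 without days 140 to 150, so its size rests on these samples. The levels did not follow a straight line, since days 100 to 120 were highest and the last stage was lower again.

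RPL36 varied most of all 76 members between stages. It had 353 CPM in virgin cells, then 290, 351, 172, 630, 1118 and 596 CPM along gestation, and 162 and 676 CPM at lactation days 7 and 15. The highest level was 6.89-fold the lowest, and lactation day 7 was the lowest of the 9 samples while day 15 was the second highest. Its slope was 1.83 log2 per 100 days (SE 0.78, edgeR adjusted p = 0.748), and 2.94 without days 140 to 150. Its log2 fold change in lactation over gestation was -0.33 (SE 0.68), -1.69 without lactation day 15, -0.51 without days 70 to 80, 0.03 without days 100 to 120 and 0.36 without lactation day 7. High slopes were also those of RPL37A at 0.67 and RPL39 at 0.61 log2 per 100 days. The slope of RPL37A was 1.43 without days 140 to 150. That of RPL39 was 0.22 without days 100 to 120, 0.29 without days 50 to 70, 1.11 without days 140 to 150 and 1.41 without days 40 to 50. The lowest among the members of at least 20 CPM were those of RPS27L at -0.62, RPS29 at -0.09, RPL35 at 0.05 and RPL26L1 at 0.05, and each of these 4 took the other sign without 1 of the gestation samples.

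**Figure D4:**
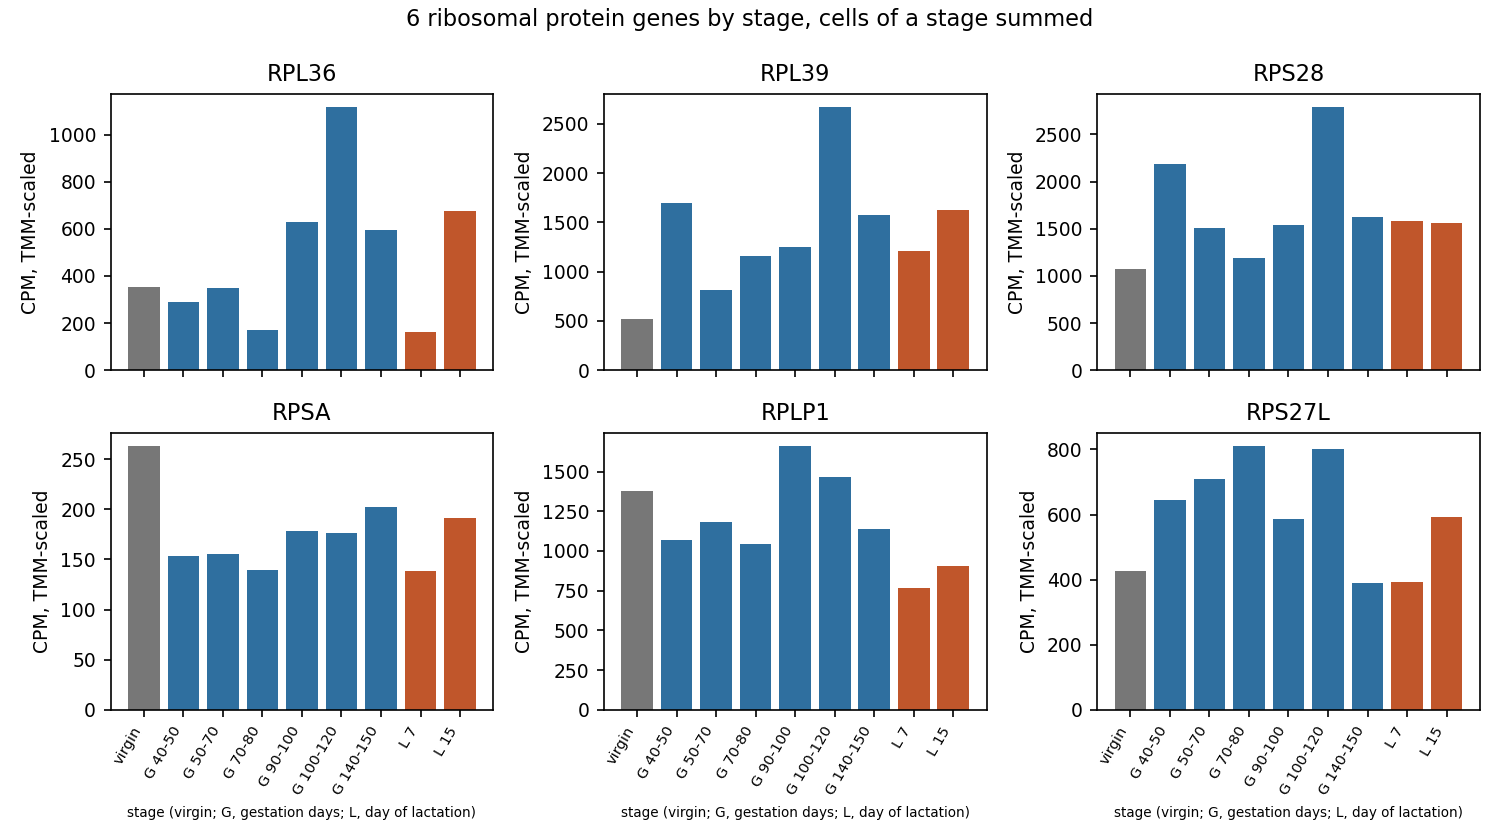
TMM-scaled CPM of 6 ribosomal protein genes at each stage, 1 sample a bar (grey virgin, blue gestation, orange lactation). RPL36 ran from 162 CPM at lactation day 7 to 1118 CPM at days 100 to 120 of gestation, RPL39 was lowest and RPSA highest in virgin cells, and RPLP1 was lowest in both lactation samples.

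RPL36 also differed widely between cells of 1 stage. In virgin cells its 5th and 95th percentiles were 99.8 and 1045 CPM, and at days 50 to 70 they were 77.0 and 961 CPM, whereas at lactation day 15 they were 371 and 1266 CPM. RPS15, a small subunit protein whose level differed little between stages, had 205 and 725 CPM in virgin cells. Over the 9 stages the 95th percentile of RPL36 was 3.41 to 12.5 times the 5th, and that of RPS15 2.98 to 4.53 times. RPS15 spread more widely than RPL36 at days 140 to 150 (4.53 against 4.04) and at days 100 to 120. At days 90 to 100 the RPL36 level of a cell went with that of RPL39 (Spearman rho 0.76), RPL37A (0.77) and RPS28 (0.55) and against that of RPS25 (-0.64) and RPLP1 (-0.53), over 355 cells of at least 155165 reads. At days 70 to 80 rho with RPL39 was -0.39 over 213 cells, and at lactation day 7 it was -0.47 over 225. These are descriptions of cells that share a stage and its libraries, and no sign held at all stages. The median rho between all pairs of members ran from 0.24 at lactation day 7 to 0.48 in virgin cells.

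**Figure D5:**
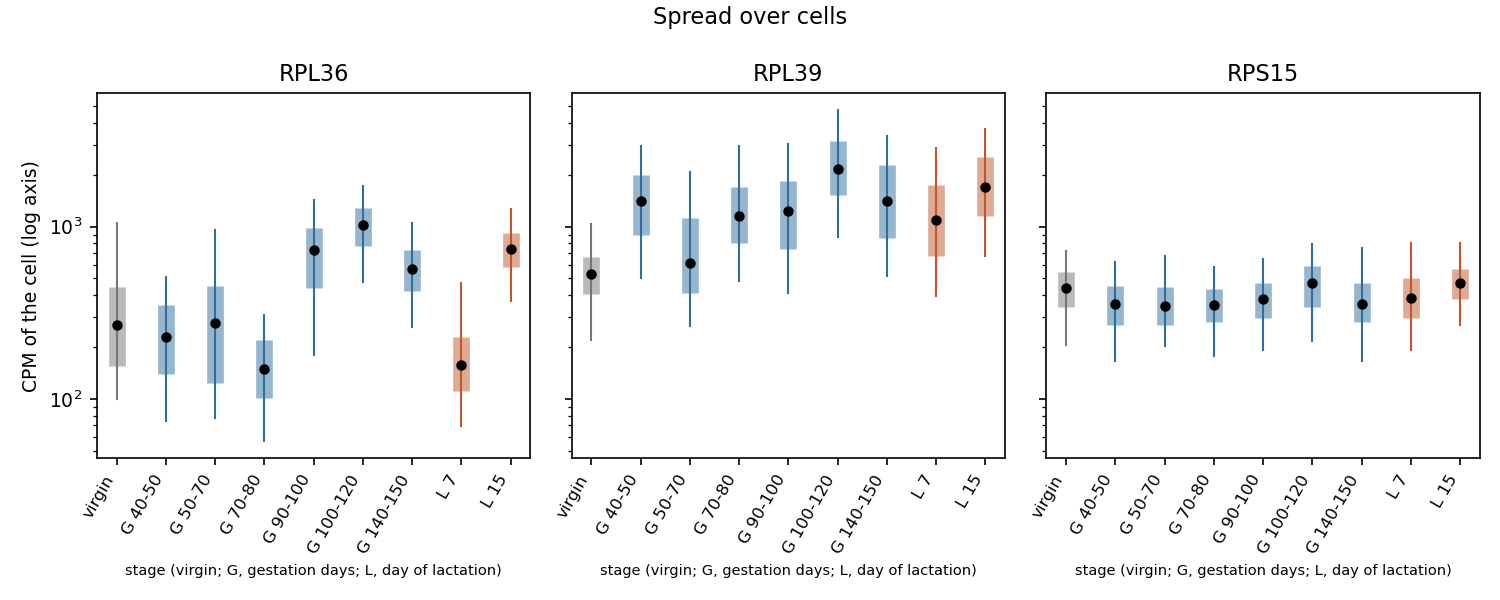
CPM per cell of RPL36, RPL39 and RPS15 at each stage on a log axis, with the median as a point, the quartiles as a thick bar and the 5th to 95th percentile as a line. The RPL36 lines of virgin cells and of days 50 to 70 span 10.5-fold and 12.5-fold, against 3.54-fold and 3.32-fold for RPS15, while at days 100 to 120 both genes span about the same, with 3.61-fold for RPL36 and 3.68-fold for RPS15.

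Most other members kept nearly the same order of levels at all stages. Over the 36 pairs of stages, Spearman's rho of the levels of 73 members was 0.849 to 0.973 with a median of 0.937. After the median level of the members in each stage was taken off, the remaining log2 deviation of a gene had a median SD of 0.16 over the 9 stages. It was under 0.2 for 52 genes and over 0.3 for 6, namely RPLP1, RPL38, RPS28, RPS25, RPL39 and RPL36. The coefficient of variation (CV) over stages had a median of 17.6% for the 76 members, against 18.6% for all 4141 genes of at least 20 CPM and 21.2% for the 671 genes of at least 200 CPM. Among the lowest CVs were those of RPS10 (9.29%), RPL28 (10.0%), RPL14 (11.1%) and RPS15 (11.7%). The highest were those of RPL36 (63.2%), RPL39 (44.2%), RPL22L1 (36.0%), RPS28 (31.2%) and RPL38 (28.7%).

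RPL39 was chosen after its values were seen, and the genes most like it were ranked by Pearson's r of the deviations over the 9 stages. RPS21, RPS14, RPS28, RPL38, RPL24 and RPS27 had r of 0.75 to 0.85, and RPL18 was the most opposite at -0.84. RPS25, which in yeast and human cells serves internal initiation, had 416 CPM at days 40 to 50 and 1089 CPM at days 90 to 100. RPS25 overlaps CENATAC in the annotation, and whether this overlap affects its counts was not tested. Among the other overlapping members with reads, the SD of the deviation over the 9 stages ran from 0.061 (RPL9) to 0.220 (RPS9). That of RPS25 was 0.364.

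The 2 subunits held a ratio between 0.717 and 0.837. Small subunit reads divided by large subunit reads gave 0.730 in virgin cells, then 0.828, 0.803, 0.782, 0.717, 0.774 and 0.763 along gestation, and 0.837 and 0.737 at lactation days 7 and 15. Lactation day 7 was the highest of all 9, and day 15 was below 5 of the 6 gestation stages. The 10 members with the most reads held 28.9% to 32.8% of member reads in gestation and lactation, against 26.0% in virgin cells.

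Per kilobase of the length given in the table, RPS28 (5010 CPM per kb), RPS18 (4218), RPL39 (3656), RPS27A, which is made as a fusion with ubiquitin (3001), and RPL27A (2749) had the highest mean levels. The lowest among the 76 were those of RPL26L1 (35.8 CPM per kb), RPL22L1 (40.3), RPS6 (74.0), RPS9 (141) and RPS4X (151). The table gives RPS6 a length of 6021 bases, RPL37A 5715 and RPS24 2973, and these lengths enter the values per length. At the annotation's gene positions, 9 members overlap another protein-coding gene, among them RPS6, RPS9 and RPL27A, and the sources do not say whether reads there were split or dropped.

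RPL27, a large subunit protein of every ribosome, was listed with 0 reads in all 9 stages, which allows up to 0.0110 to 0.0261 CPM per stage at 3 counts. It lies inside the annotated span of IFI35, an interferon-induced gene that had 55125 reads. Whether reads in the overlap were dropped was not tested. RPL10L, a testis form in human and mouse, had 1 read at days 100 to 120, 5 at lactation day 7, 1 at lactation day 15 and 0 elsewhere.

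Of the 4 paralogs within the name pattern that were set against their parent gene, RPS27L had the most reads relative to its parent gene. RPS27L, a p53 target in human cells, had 29.3% to 85.2% of the TMM-scaled CPM of RPS27 over the stages, lowest at lactation day 7 and highest at days 70 to 80. Per length the same ratio was 35.9% to 105%. RPS27L had 392 and 592 CPM in lactation, against 390 to 810 CPM in gestation and 425 CPM in virgin cells, with a log2 fold change of -0.42 (SE 0.29; -0.15 without day 7 and -0.75 without day 15) in lactation over gestation and 0.63 (SE 0.39) in gestation over virgin. RPL22L1 had 24.5 and 17.1 CPM in lactation, 14.5 to 37.8 CPM in gestation and 13.7 CPM in virgin cells. That was 3.54% to 9.63% of RPL22 over the stages.

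RPL7L1, a nucleolar relative of RPL7, had 15.7 and 30.7 CPM at lactation days 7 and 15, against 14.6 to 22.8 CPM in gestation and 21.3 CPM in virgin cells. RPL26L1 had 20.3 and 29.1 CPM against 21.3 to 27.1 CPM and 24.1 CPM. RPL3L, the heart and skeletal muscle form of RPL3 in mouse and human, had 14 and 55 reads in the lactation stages, 39 to 110 in gestation and 37 in virgin cells, and reads in 4.35% of cells. Its level was 0.112 and 0.182 CPM in lactation, against 0.313 to 0.627 CPM in gestation, without overlap (log2 fold change -1.65, SE 0.65, edgeR adjusted p = 0.455). At such counts reads from RPL3 cannot be told apart from its own. None of the paralogs passed a test in the 4 comparisons.

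Genes around the ribosome were described in the same fits. FAU, a ribosomal protein made as a fusion with a ubiquitin-like protein, was highest at days 100 to 120 too, with 1500 CPM, against 806 CPM at days 70 to 80. RPL36AL had 188% to 312% of the level of its relative RPL36A over the stages. Of 4 ribosomal or ribosome-bound genes outside the name pattern, FAU, RPL36AL and RACK1 among them, 0 passed the test in any comparison. Among 22 elongation and initiation factors and other TOP messages, 0 passed in edgeR in any comparison, and DESeq2 called 1 in lactation against gestation. Of these, 17 had a slope above 0 over gestation, against 51.1% of all genes, with a median of 0.15 log2 per 100 days. Without days 100 to 120 that count was 11 and the median 0.02, and without days 140 to 150 the median was 0.46. TPT1, a translationally controlled protein, had 1823 and 2286 CPM in lactation and 1476 to 2414 CPM in gestation. EEF1A1, the factor that brings transfer RNA to the ribosome, had 796 and 1764 CPM in lactation and 995 to 1721 CPM in gestation.

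For the ribosome assembly and nucleolar genes, the values in lactation over gestation rested on 1 sample. Of 73 tested, 0 passed in edgeR, and 66 had a log2 fold change above 0 in lactation over gestation, against 48.9% of all genes, with a median of 0.31 against -0.01. An unadjusted p under 0.05 with a higher level was found for 11, against 5.01% of all genes. Without lactation day 15 the count above 0 was 36, the median -0.01 and the count at an unadjusted p under 0.05 was 1. DESeq2 called 1 of the 73 in this comparison and 1 in the slope over gestation. Their summed level was 1293 and 1882 CPM at lactation days 7 and 15, against 1209 to 1515 CPM in gestation and 1511 CPM in virgin cells. GAR1, a protein of the H/ACA particles that guide pseudouridylation, was chosen after its values were seen as the lowest p of the list, with 25.9 and 44.9 CPM in lactation, 11.4 to 21.8 CPM in gestation and 29.6 CPM in virgin cells (log2 fold change 1.22, SE 0.25, edgeR adjusted p = 0.143), and without lactation day 15 its log2 fold change was 0.77. NPM1 and SBDS, the most abundant of the list, had log2 fold changes of 0.13 and -0.18. In gestation over virgin, 14 of the 73 were above 0, against 54.8% of all genes, and their median was -0.22, against 0.06 for all genes. Over gestation, 60 of the 73 had a slope above 0, against 51.1% of all genes, with a median of 0.29 log2 per 100 days. In edgeR, 9 of them had an unadjusted p under 0.05 with a slope above 0, against 3.2% of all genes. The values over virgin rest on 1 virgin library. For the slope and for gestation over virgin, values of this list with 1 stage left out are not reported here.

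Of the other lists, the 74 mitochondrial ribosomal proteins tested had a median log2 fold change of 0.00 in lactation over gestation, with 36 above 0, against 48.9% of all genes, and 0 called. That median was 0.17 without lactation day 7 and -0.13 without day 15. Their median slope over gestation was -0.08 with 29 above 0, beside 76 of 78 for the cytosolic ones and 51.1% of all genes, and without days 140 to 150 the median was 0.08 with 45 above 0. MRPL23, the most abundant of them, had 2531 CPM at days 100 to 120 and 1339 CPM at days 70 to 80, and MRPS33 had 134 and 99.3 CPM. The 17 genes of RNA polymerase I and its control, the 32 of mTORC1 and translation control and the 12 chaperones and importers of ribosomal proteins had 0 called by edgeR in any comparison, while DESeq2 called 3 of the 32 in lactation against gestation. Their medians in lactation over gestation were 0.02, 0.11 and 0.17. With 1 stage left out these ran from -0.03 to 0.12, from 0.07 to 0.15 and from 0.12 to 0.34. Of their most abundant members, EIF4G1, the scaffold of the cap-binding complex, had 123 and 109 CPM in lactation against 64.1 to 96.2 CPM in gestation without overlap (log2 fold change 0.55, edgeR adjusted p = 0.344), while EIF4E (0.15), IPO7 (0.33), KPNB1 (-0.12) and POLR1D (-0.24) had log2 fold changes that did not pass either. MYC, a transcription factor that drives ribosome production in many cells, had 31.4 CPM in virgin cells, then 6.91, 14.1, 97.2, 42.7, 70.3 and 54.7 CPM along gestation, and 13.0 and 65.2 CPM at lactation days 7 and 15. Its highest level was in the single sample at days 70 to 80, the gestation stage where most ribosomal protein genes were lowest. A link between MYC and these genes was not tested.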

How the data were processed

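The authors deposited raw, whole-number read counts for each cell. The tools, per the submitters' processing notes, include featureCounts 2.0.1, HISAT2 2.1.0 and Trimmomatic 0.39. Not given in the sources used here are the build, the strand setting and whether molecular identifiers were collapsed. The 24 rows that name no gene (0.474% of reads) stayed out of all totals. The gene lengths in the table, per the file headers, stood in for the coding lengths first planned. Cells of a stage were added up, and these counts tested with edgeR 4.0.16 in R 4.3.3 (glmQLFit and glmQLFTest after filterByExpr and TMM, Benjamini-Hochberg adjustment over all genes, threshold 0.05), with 1 term per phase over all 9 stages, or the middle day over the 6 gestation stages (slope per 100 days). The script was tested on simulated counts. Alternatives were DESeq2 1.42.0 (test and size factors), library size alone, no filter, equal weight per cell with limma 3.58.1, deeper cells, cells without PTPRC, HBB or PECAM1 reads (chosen after seeing the data), and each stage left out. Equal weight per cell scaled each cell by its own reads and used no TMM. Shares carry 95% Clopper-Pearson intervals, and a count of 0 allows 3 counts. No cells were clustered, and doublets were not called. Cells were picked singly, but whether a pick held more than 1 cell was not tested. Names and neighbours came from RefSeq (ARS-UI_Ramb_v3.0), in which all 80 members were found. Ribosomal proteins under LOC numbers were not analysed here, and no sequence is printed. The members and lists were chosen with earlier results of these data known. The text names, per comparison, the 4 members at each end of the fold changes, the stalk genes, RPSA, RPS6, the paralogs, the 5 at each end of level per length and of CV, and the most abundant genes of each other list. Values of some genes that meet this rule are not reported here.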

Additional observations from a re-analysis of the deposited data

Results flagged for a closer look

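Of 32 gene levels examined over the 6 gestation stages, 4 had a highest sample whose gap to the next exceeded Dixon's 95% critical value of 0.625, and all 4 were at days 100 to 120. RPS27 had 1985 CPM there, against 950 to 1297 CPM in the other 5 gestation samples. RPL35 had 1105 CPM against 741 to 860 CPM, RPS15 had 529 CPM against 352 to 417 CPM, and RPL22L1 had 37.8 CPM against 14.5 to 23.0 CPM. Chance flags about 1 in 20 groups, and these genes share 1 library, so they are not 4 separate results. The lymphocyte markers were also highest of gestation in this sample, at 35.9 CPM summed, and the share of all ribosomal protein reads there was 6.73% without the cells that had PTPRC, HBB or PECAM1 reads and 6.82% with them.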

How the results depend on the processing

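No paired analysis was possible because the labels give no replicate numbers and each stage is 1 sample. Over all results and settings, 792 values were counted as the same, 18 as moved and 11 as reversed. Medians near 0 could still change sign, as the ranges below show. The count of members called was 0 in all 4 comparisons under every alternative run, including DESeq2 and equal weight per cell. The median log2 fold change of the members in lactation over gestation was 0.21 with equal weight per cell, against -0.04 as reported. That setting also leaves out TMM, so effects of the weighting and of the scaling cannot be told apart. Leaving out 1 stage gave medians of -0.13 to 0.05 in lactation over gestation, -0.06 to 0.09 in gestation over virgin, -0.07 to 0.07 in lactation over virgin and 0.16 to 0.69 for the slope. With the 10 most abundant other genes out of the total, the summed share was 7.04% in virgin cells, 6.32%, 6.26%, 5.85%, 7.12%, 8.71% and 6.94% along gestation, and 6.73% and 7.31% at lactation days 7 and 15. Among single members, changes of sign were in RPL36 (lactation over gestation, -1.69 to 0.36 with 1 stage left out), RPL15 (-0.013 to 0.64), and the slopes of RPS29 (0.022 with equal weight per cell, -0.25 to 0.13 with 1 stage left out), RPL26L1 (-0.043 with equal weight, -0.042 to 0.45), RPL35 (-0.15 to 0.52) and RPS27L (-0.96 to 0.20). The cause of these shifts was not tested. The virgin phase has 1 sample and lactation 2, which limits every comparison with them.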
